A study of Mus musculus with 6 samples.

Results

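DNA methylation was examined at 9 genes of the costimulatory and inhibitory receptors of T cells, Pdcd1, Ctla4, Lag3, Havcr2, Tigit, Cd28, Icos, Tnfrsf9, and Tnfrsf4, in CD8+ T cells from mouse lymph nodes. Members were the CpGs that lay within a gene body or within 10 kb on either side of it in GRCm38 (mm10) and were covered by 5 or more reads in all 6 libraries. This rule kept 252 CpGs of 1192344 that met the same read minimum across the genome, and it used no methylation value. The method was reduced representation bisulfite sequencing (RRBS), in which MspI cuts the DNA at CCGG, bisulfite converts unmethylated cytosines, and the share of reads that still show cytosine at a CpG gives its methylation level. RRBS therefore reads CpGs close to MspI sites, and the 9 genes were sampled unevenly.

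The libraries came from 3 genotypes on the C57BL/6N background, with 2 libraries each: WT mice (labeled wt), mice carrying a transgene for human STAT5B (hSTAT5B +/T), and mice carrying the same transgene with an asparagine-to-histidine change in the SH2 domain (hSTAT5B N642H +/T), written hSTAT5B and hSTAT5BN642H below. Both transgenes were driven by the Vav1 promoter, which is active across hematopoietic cells and not only in T cells, and each was represented by a single mouse line. The animals were 13 weeks old, and the hSTAT5BN642H mice had T cell disease while the WT and hSTAT5B mice did not, so that genotype and disease cannot be told apart. CD8+ cells were enriched with a magnetic kit and were not sorted into naive and effector subsets. In such bulk DNA a change in the share of one cell type and a change of methylation within cells cannot be told apart.

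T cells need a second signal besides the antigen receptor. CD28, ICOS, 4-1BB (encoded by Tnfrsf9), and OX40 (encoded by Tnfrsf4) give an activating signal, whereas PD-1 (Pdcd1), CTLA-4, LAG-3, TIM-3 (Havcr2), and TIGIT restrain the cell. Except for CD28, which naive T cells already carry, these receptors are mostly induced by activation. Methylation of CpGs at promoters and enhancers is commonly low where a gene is in use and high where it is silent, and STAT5, the transcription factor activated by IL-2 family cytokines, binds DNA at palindromic TTCNNNGAA elements.

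The sequences below hold sites of 5 genes that the results describe CpG by CpG, and they are shown so that those CpGs can be placed. They are not a ranking: some CpGs of Lag3 and Cd28 that are not printed differed by more than the printed Cd28 CpG. All are from the RefSeq GRCm38.p6 genome, plus strand, 5′ to 3′, with the measured CpGs as capital CG. In the Tnfrsf9 sequence the capital run of 9 letters is the only match to TTCNNNGAA, and it starts at base 150924044, 23 bases ahead of the first measured CpG. The Tnfrsf9 region is chr4:150924031-150924222, in intron 1 of 3 annotated transcripts. The Icos region is chr1:60978171-60978221 in intron 1, the Ctla4 region is chr1:60911484-60911535 in an intron, and the Cd28 region is chr1:60755430-60755481 in an intron. The Tnfrsf4 region, chr4:156023657-156023823, lies downstream of the gene and overlaps an exon of the antisense RNA gene Gm16008. The TTCNNNGAA element is absent from the last 4 sequences, but these were printed with shorter flanks ahead of their first measured CpG. An element as far ahead as that of Tnfrsf9 would not be contained in them. Its absence there can therefore not be set against its presence in Tnfrsf9. The Ctla4 and Cd28 CpGs lie in no cluster and were not part of the wider search described below.
Tnfrsf9 intron 1: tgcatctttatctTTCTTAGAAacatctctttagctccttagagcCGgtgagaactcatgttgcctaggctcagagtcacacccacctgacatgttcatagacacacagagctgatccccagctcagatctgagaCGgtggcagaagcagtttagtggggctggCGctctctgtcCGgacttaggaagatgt
Icos intron 1: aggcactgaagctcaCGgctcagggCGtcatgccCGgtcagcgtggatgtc
Ctla4 intron: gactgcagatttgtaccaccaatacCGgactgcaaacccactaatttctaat
Cd28 intron: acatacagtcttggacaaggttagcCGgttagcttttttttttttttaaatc
Tnfrsf4 downstream: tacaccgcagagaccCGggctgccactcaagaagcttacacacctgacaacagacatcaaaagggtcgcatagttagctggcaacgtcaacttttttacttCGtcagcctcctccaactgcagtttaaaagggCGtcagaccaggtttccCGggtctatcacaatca

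The libraries held 2597893 to 3445555 CpGs and 43291086 to 67007186 reads, with a median of 5 to 11 reads per CpG. Differences were tested with limma in one model over the 6 libraries at 3 scales: the single CpG, the cluster (3 or more measured CpGs with gaps of at most 100 bp), and the gene window (the mean over all measured CpGs of a gene body and its 10-kb flanks, for genes with 5 or more CpGs). No CpG of 1192344 and no cluster of 124096 passed an adjusted p of 0.05 in the comparison of hSTAT5BN642H with WT, although 74908 CpGs and 8498 clusters had an unadjusted p under 0.05. Fisher's exact test on reads summed over the libraries of a genotype, which ignores the spread between libraries, called 10199 CpGs and 9088 clusters. Of 19377 gene windows, limma called 6 (0.031%) between hSTAT5BN642H and WT, 0 (0.0%) between hSTAT5B and WT, where 1155 had an unadjusted p under 0.05, and 2 (0.0103%) between hSTAT5BN642H and hSTAT5B. None of the 9 receptor genes was among them, and the differences described below are values with their replicate spread, not calls.

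The 9 windows differed far more from one another than any one of them differed between genotypes. Pdcd1, Tigit, and Cd28 were close to fully methylated, Ctla4, Icos, Tnfrsf4, and Havcr2 lay lower, Tnfrsf9 was near 50%, and Lag3 was lowest. The ranks depend on which CpGs RRBS reads: 92 of the 123 CpGs in the Lag3 window lay inside the neighboring gene Ptms, whose CpG-rich start was unmethylated in every library. Of the 60 CpGs in the Tnfrsf9 window, 38 lay in the gene body. Only 9 lay outside other protein-coding genes, with library means of 1.51% to 4.97%. Over all 252 CpGs, 98 (38.9%) had a mean level of 90% or more, 102 (40.5%) had 10% or less, and 52 (20.6%) lay between. CpGs with 11 or more CpGs within 100 bp had a median level of 1.53% (113 CpGs, in 3 genes), whereas those with 1 to 2 CpGs within 100 bp had a median of 94.1% (22 CpGs).

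**Figure D1:**
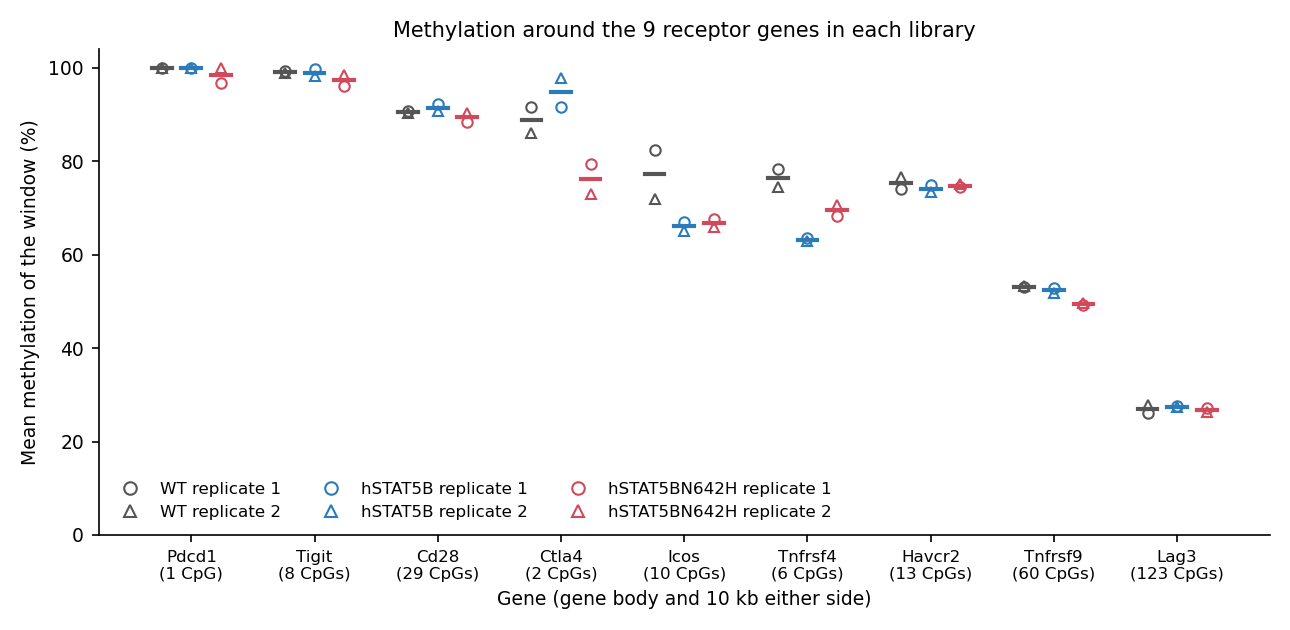
Mean methylation (%) of the measured CpGs in each gene window in each library, circles for replicate 1, triangles for replicate 2, and bars for genotype means, ordered by level. The hSTAT5BN642H symbols lie below both WT symbols at Tnfrsf9 (49.3% and 49.7% against 53.1% and 53.3%), and at Icos and Tnfrsf4 both transgenic genotypes lie below both WT libraries.

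In the comparison of hSTAT5BN642H with WT, the 7 windows with enough CpGs for a test all had a lower mean in hSTAT5BN642H, with a median difference of -1.73 percentage points. The median over all 19377 windows was -0.22 points. With reads summed over each window, Lag3 (5.91 points) and Cd28 (0.93 points) were higher in hSTAT5BN642H and the others lower. In 4 of the 7 windows (Tnfrsf9, Icos, Tnfrsf4, and Tigit) both hSTAT5BN642H libraries were below both WT libraries, at Icos and Tnfrsf4 not when reads were summed, whereas 25.2% of all windows were separated in that direction and 16.0% in the other. The smallest adjusted p among the 7 was 0.156, for Tnfrsf9. In hSTAT5B against WT, 5 windows had a lower mean and 2 a higher mean, with a median difference of -0.76 points against 0.12 over all windows. Both comparisons share the WT libraries. Between hSTAT5BN642H and hSTAT5B, 4 windows were lower and 3 higher, with a median of -0.64 points.

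At single CpGs, a CpG was counted as shifted where the 2 genotypes had no overlap between libraries and a gap of 10 percentage points or more between means. Between hSTAT5BN642H and WT, 22 of 252 CpGs (8.73%) were shifted to lower levels, against 5.06% of all CpGs, and 7 (2.78%) to higher levels, against 3.88%. Tnfrsf9 held 9 of the 22, Lag3 held 5, Icos, Tnfrsf4, and Cd28 held 2 each, and Ctla4 and Havcr2 held 1 each. Between hSTAT5B and WT, 10 CpGs (3.97%) were shifted down against 3.57% of all CpGs, and 6 (2.38%) were shifted up against 4.01%. Between hSTAT5BN642H and hSTAT5B, 15 CpGs (5.95%) were lower and 10 (3.97%) higher, against 5.24% and 3.61%. The hSTAT5B counts were thus near or below the genome-wide share in both directions.

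Over all 252 CpGs, shifted or not, the gap between the libraries of one genotype was of a similar size to the gap between genotype means. These measures are unlike, since a mean over libraries varies less than a single library, so they cannot be weighed directly. The median absolute difference between the libraries of a genotype was 2.80 points in WT, 1.77 in hSTAT5B, and 2.90 in hSTAT5BN642H. The means of hSTAT5BN642H and WT differed by a median of 2.17 points. A gap of 10 points or more separated the WT libraries from each other at 52 CpGs, and it separated the hSTAT5BN642H and WT means at 43.

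**Figure D2:**
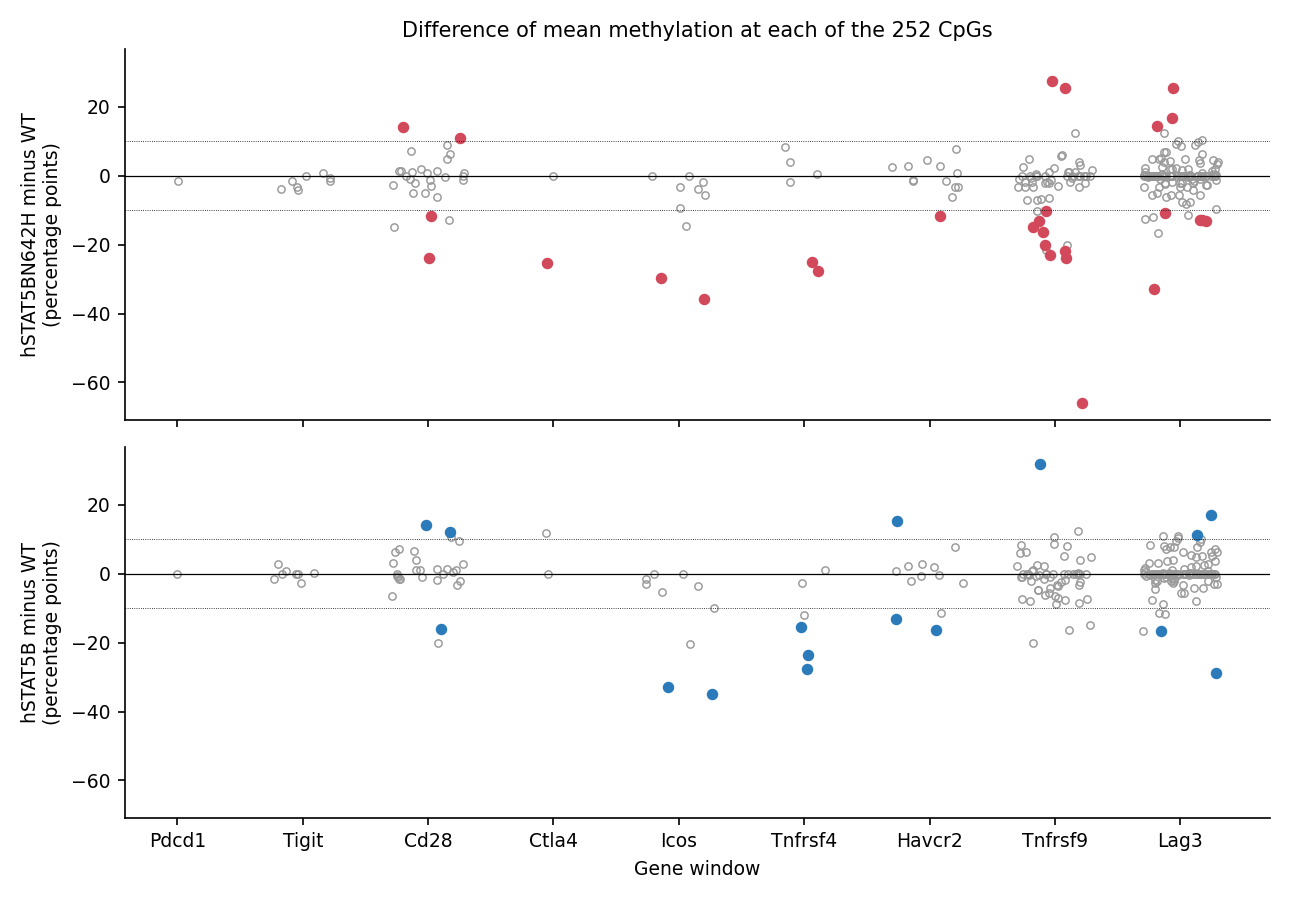
Difference of mean methylation (percentage points) at each of the 252 CpGs, by gene, for hSTAT5BN642H minus WT (top) and hSTAT5B minus WT (bottom); filled symbols mark CpGs whose libraries do not overlap and whose means differ by 10 points or more (dotted lines), and horizontal position within a gene is spread for legibility. Most CpGs lie near 0, and the lowest symbol of the upper panel is a Tnfrsf9 CpG at -66.0 points.

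When neighboring CpGs were summed, the 9 windows held 26 clusters, of which 4 (15.4%) were lower in hSTAT5BN642H than WT without overlap and by 10 points or more, against 2.27% of all clusters. These were the Icos intron 1 cluster, 2 Tnfrsf9 clusters, and the cluster downstream of Tnfrsf4. None was higher, against 2.17% of all clusters. Between hSTAT5B and WT 2 of the 26 clusters (7.69%), at Icos and Tnfrsf4, were lower, against 1.36% of all clusters, and none was higher, against 1.65%.

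The largest difference lay in Tnfrsf9, whose product 4-1BB is a costimulatory receptor of the TNF receptor superfamily that sustains the proliferation and survival of activated CD8+ T cells. Tnfrsf9 occupies chr4:150914562-150946102 on the plus strand, and 60 of the 206 CpGs that any library covered in its window could be compared. The cluster printed above spans 4 CpGs at chr4:150924076-150924207. It lies 3.89 kb downstream of the start of one coding transcript of Tnfrsf9 (150920190) and 1230 bp upstream of the start of another (150925306), and it also lies inside Camta1, a transcription factor gene on the opposite strand. In WT, 33 of 88 reads (37.5%, 95% Wilson interval 28.1 to 47.9) and 25 of 78 reads (32.1%, 22.8 to 43.0) were methylated. In hSTAT5B, 11 of 36 reads (30.6%, 18.0 to 46.9) and 22 of 57 reads (38.6%, 27.1 to 51.6) were methylated. In hSTAT5BN642H, methylated reads numbered 2 of 112 (1.79%, 0.491 to 6.28) and 1 of 56 (1.79%, 0.316 to 9.45). The WT and hSTAT5B libraries overlapped, and both hSTAT5BN642H libraries lay well below all 4 of them.

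The mean of this cluster was 34.8% ± 3.85 in WT, 34.6% ± 5.69 in hSTAT5B, and 1.79% in both hSTAT5BN642H libraries (SD, n = 2). The difference between hSTAT5BN642H and WT was -33.0 points, or -4.12 (SE 0.46) on the log2 scale of methylated over unmethylated reads, and it did not pass limma's test over 124096 clusters (adjusted p = 0.698). Against hSTAT5B the difference was -32.8 points (limma adjusted p = 0.693), and between hSTAT5B and WT it was -0.20 points (limma adjusted p = 0.999). Across the genome, 0.0798% of clusters differed at least as far downward. A quasi-binomial model of the reads gave an adjusted p of 0.162, and Fisher's exact test on summed reads gave an adjusted p of 2.06e-14. With each library left out in turn, the difference from WT ran from -35.7 to -30.3 points.

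All 4 CpGs of the cluster took part. The CpG at 150924195 had 70.8% (17 of 24 reads) and 68.8% (11 of 16) in WT, 57.1% (4 of 7) and 66.7% (4 of 6) in hSTAT5B, and 7.69% (1 of 13) and 0% (0 of 9) in hSTAT5BN642H. This difference of -66.0 points from WT was the widest of the 252 CpGs (limma adjusted p = 0.728). The CpG at 150924076, nearest to the TTCNNNGAA element, was less even in WT and hSTAT5B: it had 40% and 11.8% in WT, 0% and 34.5% in hSTAT5B, and 0% (0 of 58 reads) and 4% (1 of 25) in hSTAT5BN642H. The CpG at 150924166 had 20.8% and 25% in WT, 42.9% and 66.7% in hSTAT5B on 7 and 6 reads, and 0 methylated reads of 14 and of 9 in hSTAT5BN642H. The CpG at 150924206 had 20% and 27.6% in WT, 40% and 25% in hSTAT5B, and 3.70% and 0% in hSTAT5BN642H. At each of the 4 CpGs both hSTAT5BN642H libraries were below both WT libraries, and only at 150924076 was a WT or hSTAT5B library at 0. The precision at single CpGs was limited by depth: the upper 95% Wilson bound was 6.21% for 0 of 58 reads and 29.9% for 0 of 9 reads.

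**Figure D3:**
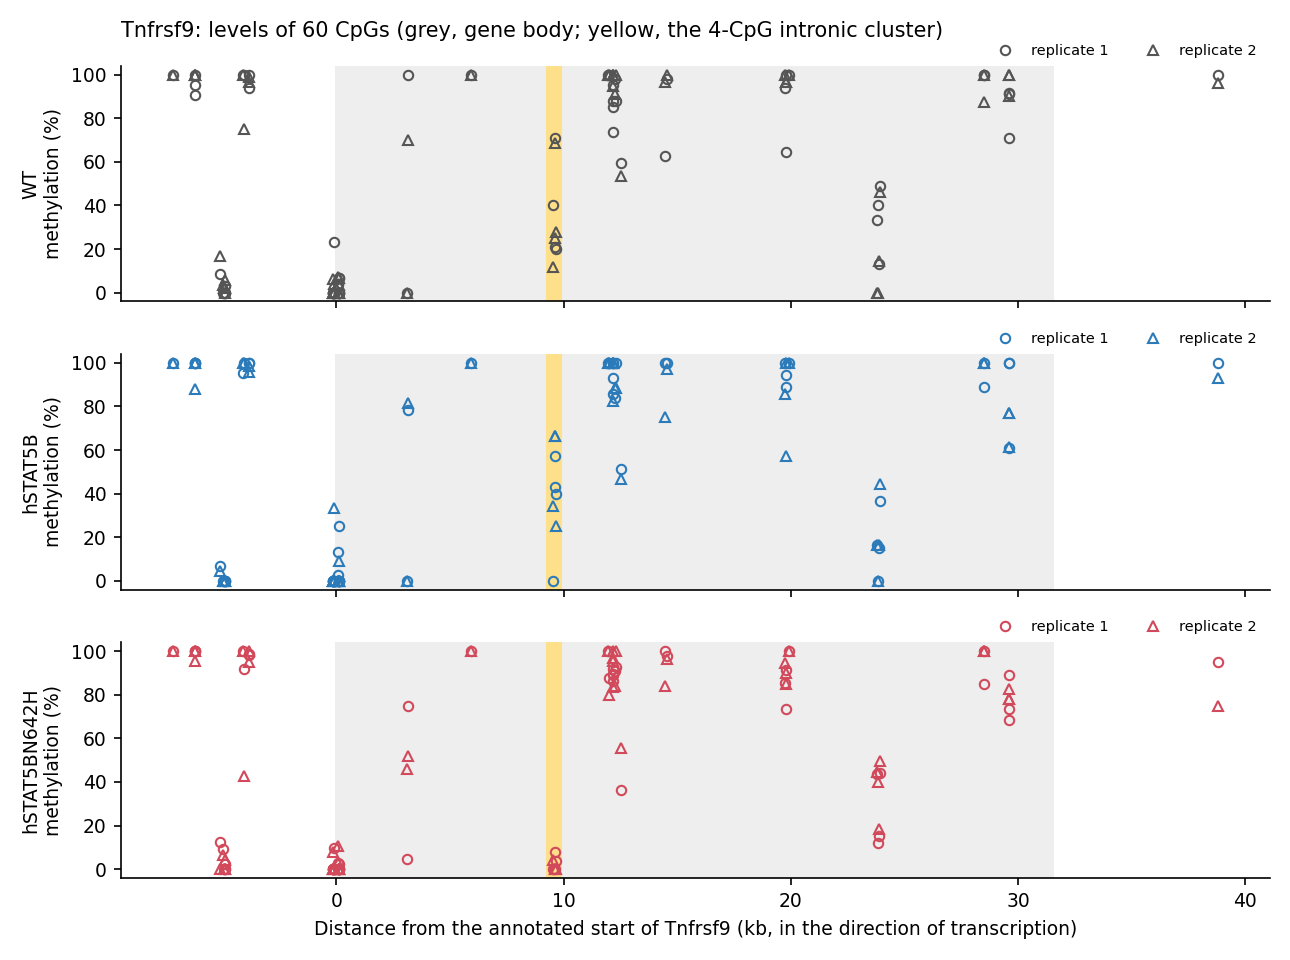
Methylation (%) of the 60 measured CpGs of the Tnfrsf9 window by distance (kb) from the annotated gene start in the direction of transcription, one panel per genotype, circles for replicate 1 and triangles for replicate 2; grey marks the gene body and yellow the 4-CpG intronic cluster. The yellow band holds CpGs between 0% and 70.8% in the WT and hSTAT5B libraries and at 7.69% or less in hSTAT5BN642H, while CpGs near the start are low and most other CpGs high in every genotype.

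The rest of the Tnfrsf9 window showed no comparable gap. The window mean was 53.1% and 53.3% in WT, 53.0% and 51.9% in hSTAT5B, and 49.3% and 49.7% in hSTAT5BN642H. The hSTAT5BN642H libraries were below the other 4, by -3.68 points from WT (SE 0.709, limma adjusted p = 0.156). Without the 4 CpGs of the cluster, the difference over the remaining 56 CpGs was -1.54 points (54.2% and 54.7% in WT, 52.6% and 53.1% in hSTAT5BN642H). The 7 CpGs in exon 1 from 150914616 to 150914692 were nearly unmethylated in every library, at 3.25% and 2.62% in WT, 6.29% and 1.04% in hSTAT5B, and 0.722% and 1.95% in hSTAT5BN642H. The gene start and the intronic cluster therefore differed: the start was low in all 6 libraries, and the intronic cluster in the 2 hSTAT5BN642H libraries.

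Several other CpGs of Tnfrsf9 also separated the genotypes, in both directions. A second intronic cluster of 3 CpGs at 150944166 was at 84.5% and 96.9% in WT, 87.0% and 71.8% in hSTAT5B, and 76.8% and 79.7% in hSTAT5BN642H. Its difference of -12.4 points from WT (limma adjusted p = 0.771) rested in part on 1 library and was -6.26 points without WT replicate 2. The intronic CpGs higher in hSTAT5BN642H were 150938368 (33.3% and 0% in WT, 43.8% and 44.4% in hSTAT5BN642H) and 150917651 (0% and 0% in WT, 4.54% and 46.1% in hSTAT5BN642H). At the latter, 1 of 22 and 6 of 13 reads were methylated, so that the higher mean came from hSTAT5BN642H replicate 2.

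The TTCNNNGAA element next to the Tnfrsf9 cluster was put in context by searching the 300 bases around the centre of every cluster. The element equals its own reverse complement, so one search covers both strands. It occurred at 9292 of 124096 clusters (7.49%) and at 4 of the 26 receptor clusters (15.4%), namely 2 in Tnfrsf9 and 2 upstream of Havcr2. Of the 4 receptor clusters lower in hSTAT5BN642H, only the Tnfrsf9 intron 1 cluster held it. Among clusters with the element 3.46% were lower in hSTAT5BN642H by the same rule, and among those without it 2.18%. These shares do not account for the starting level: all 2821 lower clusters had a WT level over 10%. Of the 95681 clusters with such a level 8.2% held the element, and of the lower ones 11.4%. The search was chosen after the Tnfrsf9 values were seen, no binding was measured, and a match of these letters is not a binding site.

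Icos encodes an inducible receptor of the CD28 family that binds ICOS ligand. The gene lies at chr1:60977927-61000320 on the plus strand, and 10 CpGs of 22 could be compared. Of these, 3 form the printed cluster, 259 to 278 bp downstream of the start. Methylated reads numbered 28 of 56 (50.0%) and 12 of 65 (18.5%) in WT, 6 of 85 (7.06%) and 1 of 35 (2.86%) in hSTAT5B, and 8 of 62 (12.9%) and 1 of 48 (2.08%) in hSTAT5BN642H. Both transgenic genotypes lay below both WT libraries and overlapped each other, and the WT libraries were far apart. The means were 34.2% ± 22.3, 4.96% ± 2.97, and 7.49% ± 7.65 (SD, n = 2). The differences from WT were -26.7 points for hSTAT5BN642H (limma adjusted p = 0.703) and -29.3 points for hSTAT5B (limma adjusted p = 0.773). Fisher's exact test on reads summed by genotype, which leaves out the gap between the WT libraries, gave an adjusted p of 0.000244 for hSTAT5BN642H. Without WT replicate 1 the difference of hSTAT5BN642H was -11.0 points, and without WT replicate 2 it was -42.5 points. Tnfrsf9 and Icos thus differed in pattern: at Tnfrsf9 the hSTAT5B libraries were at the WT level, and at Icos they were at the hSTAT5BN642H level.

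The 3 Icos CpGs did not behave alike in WT replicate 2. That library had 0 methylated reads of 22 at 60978186 (upper 95% Wilson bound 14.9%), against 44.4% (8 of 18) in WT replicate 1, and 27.3% and 28.6% at 60978196 and 60978205, against 52.6% at both in WT replicate 1. At 60978205 the transgenic libraries had 6.90% and 8.33% in hSTAT5B and 9.52% and 0% in hSTAT5BN642H, which put hSTAT5BN642H -35.8 points from WT (limma adjusted p = 0.728). The Icos window as a whole was at 82.5% and 71.9% in WT, 67.0% and 65.2% in hSTAT5B, and 67.6% and 66.0% in hSTAT5BN642H. Its difference of -10.4 points from WT (SE 3.23, limma adjusted p = 0.343) was -3.44 points over the other 7 CpGs when the cluster was left out. The window difference was -5.17 points without WT replicate 1 and -15.7 points without WT replicate 2. With reads summed over the window it was -3.27 points and the separation was lost, since WT replicate 2 (76.05%) was just below the hSTAT5BN642H libraries (78.1% and 76.08%).

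WT replicate 1 stood above the other libraries at several of these sites. It exceeded all 5 others by 20 points or more at 6 of the 252 CpGs, namely the 3 Icos CpGs, 2 Cd28 CpGs, and 1 Tnfrsf4 CpG, while the other libraries did so at 1 to 3 CpGs each. Over all CpGs the share was 0.518% for this library and 0.219% to 0.541% for the others. The window of Cd8a, which encodes the CD8 alpha chain, stood apart in the same library, with 65.7% in WT replicate 1 against 29.8% to 42.6% in the other 5. The Cd8b1 window was at 44.2% and 45.6% in WT, 23.9% and 29.5% in hSTAT5B, and 13.9% and 14.3% in hSTAT5BN642H, and its difference of -30.7 points between hSTAT5BN642H and WT passed the test (limma adjusted p = 0.00902). That call was lost with no variance trend and without either hSTAT5BN642H library, where limma called 0 windows. Of 23 marker genes of T, B, myeloid, and natural killer cells, 20 had 5 or more CpGs, and Cd8b1 was the only one called. Neither natural killer marker could be tested, and Ncr1, on 3 CpGs, was at 100% and 97.2% in WT and at 84.5% and 96.0% in hSTAT5BN642H. The 18 tested markers other than Cd8a and Cd8b1 differed by -3.59 to 9.05 points between hSTAT5BN642H and WT (smallest limma adjusted p = 0.159), and Cd4, which marks the other main T cell lineage, was at 29.2% to 30.9% in all libraries. Methylation does not show whether a marker is expressed, so the labeled cell type could not be checked by its transcripts, and the part of the Cd8a and Cd8b1 differences in the Icos and Tnfrsf9 results was not tested.

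**Figure D4:**
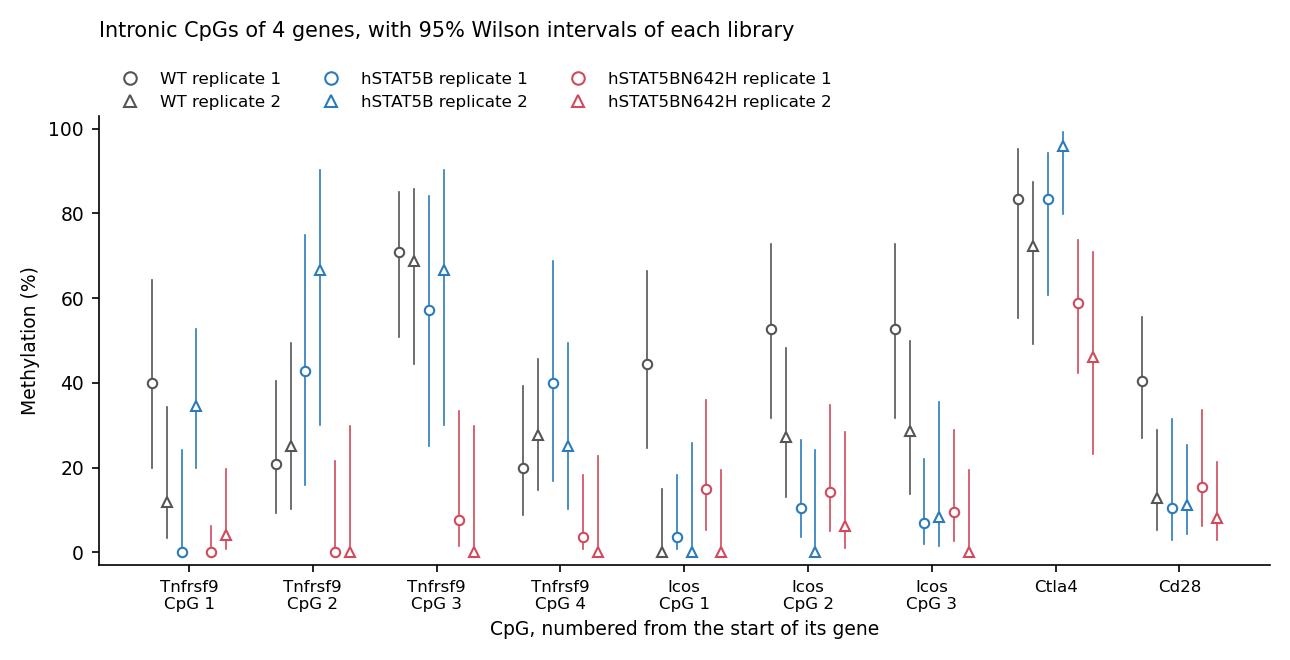
Methylation (%) at the intronic CpGs printed for Tnfrsf9, Icos, Ctla4, and Cd28 in each library, circles for replicate 1 and triangles for replicate 2, with 95% Wilson intervals that cover counting error only; CpGs are numbered from the start of their gene. The hSTAT5BN642H symbols are the lowest at the 4 Tnfrsf9 CpGs apart from one hSTAT5B library at 0% at CpG 1, whereas at the Icos and Cd28 CpGs WT replicate 1 is the highest library, and WT replicate 2 is above the transgenic libraries at Icos CpGs 2 and 3.

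Cd28 encodes the receptor for CD80 and CD86 that naive T cells depend on for their first activation. It lies at chr1:60716800-60773359 on the plus strand, and 29 of 112 CpGs could be compared. The window was highly methylated and nearly even, at 90.7% and 90.3% in WT, 92.2% and 90.8% in hSTAT5B, and 88.5% and 90.4% in hSTAT5BN642H, with a difference of -1.04 points between hSTAT5BN642H and WT (SE 1.14, limma adjusted p = 0.826). The hSTAT5BN642H and WT libraries overlapped. Both hSTAT5B libraries were above the other 4, but hSTAT5B replicate 2 (90.77%) was barely above WT replicate 1 (90.73%). With reads summed over the window, hSTAT5B replicate 2 (90.97%) was below both WT libraries (91.03% and 92.12%). One intronic CpG, 60755455, printed above and 9097 bp from the annotated start at 60746358, was mostly unmethylated in all libraries but one. It had 40.5% (17 of 42 reads) and 12.9% (4 of 31) in WT, 10.5% and 11.1% in hSTAT5B, and 15.4% and 8.11% in hSTAT5BN642H. Apart from WT replicate 1, the 5 libraries ran from 8.11% to 15.4%. The cluster nearest to a coding start, 3 intronic CpGs from 60735346, was at 89.6% and 82.3% in WT, 100% and 89.2% in hSTAT5B, and 66.7% and 93.3% in hSTAT5BN642H, and no cluster of Cd28 separated hSTAT5BN642H from WT. The cluster from 60735346 lay at -11012 bp from the coding start at 60746358, that is, upstream of it. The other Cd28 clusters lay further upstream of that start. They count as intronic because the annotated gene begins at 60716800. The CpG at 60731592, with 80% and 60% in WT, 60% and 40% in hSTAT5B, and 33.3% and 58.8% in hSTAT5BN642H on 10 to 20 reads, had the widest difference from WT in this gene (-23.9 points, limma adjusted p = 0.85).

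OX40, the product of Tnfrsf4, is a costimulatory receptor related to 4-1BB. The gene lies at chr4:156013843-156016612 on the plus strand, and the 6 comparable CpGs of 26 were all downstream of it, so nothing was measured in the gene itself. Of these, 4 form the cluster at chr4:156023672-156023808, which is 9.83 kb from the start of Tnfrsf4 and 2.49 kb upstream of the start of Tnfrsf18, the gene of the related receptor GITR. Methylated reads numbered 95 of 134 (70.9%) and 124 of 181 (68.5%) in WT, 102 of 166 (61.4%) and 59 of 127 (46.5%) in hSTAT5B, and 127 of 219 (58.0%) and 69 of 116 (59.5%) in hSTAT5BN642H. All transgenic libraries were below both WT libraries. The differences from WT were -11.0 points for hSTAT5BN642H (limma adjusted p = 0.836) and -15.8 points for hSTAT5B (limma adjusted p = 0.834). The gap was uneven among its CpGs: 156023807 was at 71.4% and 73.5% in WT, 51.0% and 46.9% in hSTAT5B, and 30.2% and 59.4% in hSTAT5BN642H, while 156023790 was at 91.7% in both WT libraries and at 95.2% and 84.4% in hSTAT5BN642H. Over the whole window hSTAT5B was -13.3 points from WT (limma adjusted p = 0.656) and hSTAT5BN642H -6.96 points (SE 2.40, adjusted p = 0.398). With reads summed over the window the difference of hSTAT5BN642H was -1.29 points and its libraries (72.5% and 81.1%) overlapped WT (77.9% and 78.3%). With the cluster left out, the 2 remaining CpGs of hSTAT5BN642H were 6.14 points above WT.

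Among the inhibitory receptors, Ctla4, which encodes a competitor of CD28 for CD80 and CD86, was covered at 2 CpGs of 22 (chr1:60887000-60915832, plus strand), too few for a test of its window. The intronic CpG at 60911509, printed above and 2484 bp downstream of a coding transcript's start at 60909025, had 83.3% (10 of 12 reads) and 72.2% (13 of 18) in WT, 83.3% (15 of 18) and 95.8% (23 of 24) in hSTAT5B, and 58.8% (20 of 34) and 46.1% (6 of 13) in hSTAT5BN642H. The hSTAT5BN642H libraries were below the other 4. The difference was -25.3 points from WT (limma adjusted p = 0.83) and -37.1 points from hSTAT5B (limma adjusted p = 0.773). Fisher's exact test on summed reads, adjusted over all CpGs, gave 0.755 and 0.0464 for these comparisons. The other Ctla4 CpG, 60901180, was fully methylated in every library.

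Lag3 encodes an inhibitory receptor that binds MHC class II. It lies at chr6:124904361-124911705 on the minus strand, and its window held 123 comparable CpGs of 224. The window levels were 26.1% and 27.9% in WT, 27.5% and 27.3% in hSTAT5B, and 27.3% and 26.3% in hSTAT5BN642H, with a difference of -0.21 points from WT (SE 0.714, limma adjusted p = 0.953). Both transgenic genotypes overlapped WT, and both hSTAT5BN642H libraries were below both hSTAT5B libraries. Outside other genes 31 CpGs remained, at 71.0% and 76.6% in WT, 73.7% and 72.7% in hSTAT5B, and 72.2% and 71.2% in hSTAT5BN642H, with the same overlaps. With reads summed over the window the direction was reversed. Both hSTAT5BN642H libraries (47.92% and 48.85%) were then above both WT libraries (39.96% and 44.99%). They lay between the hSTAT5B libraries (49.66% and 40.12%).

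Within Lag3 the differences had opposite signs at neighboring sites. The CpG in exon 1 at 124911365, 340 bp downstream of the start and covered by 79 to 116 reads, had 33.0% and 28.1% in WT, 23.3% and 32.5% in hSTAT5B, and 40.5% and 49.4% in hSTAT5BN642H. Both hSTAT5BN642H libraries were above the other 4 by a mean of 14.4 points from WT, without passing the test (limma adjusted p = 0.888; Fisher's exact test on summed reads, adjusted p = 0.242). The intronic CpG at 124909681 had 73.7% and 100% in WT, 90.5% in both hSTAT5B libraries, and 72.7% and 35.0% in hSTAT5BN642H (-33.0 points, limma adjusted p = 0.758), although the lower WT and the higher hSTAT5BN642H library nearly met. The intronic CpG at 124910091 was higher in hSTAT5BN642H, with 45.5% and 37.5% in WT, 15.4% and 65.0% in hSTAT5B, and 58.8% and 75.0% in hSTAT5BN642H, and the 4 exonic CpGs from 124910326, at 22.7% to 34.7%, overlapped between genotypes.

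Havcr2, Tigit, and Pdcd1 showed little difference between genotypes in their window means. Havcr2, the gene of TIM-3, which binds galectin-9 among other ligands (chr11:46454935-46481255, plus strand; 13 CpGs of 64), was at 74.0% and 76.7% in WT, 74.9% and 73.4% in hSTAT5B, and 74.4% and 75.1% in hSTAT5BN642H. Its difference of -0.56 points (SE 1.64, limma adjusted p = 0.945) was within the spread of the WT libraries. The high levels of this window were all in its flanks, at 8 upstream CpGs and 1 downstream. The only CpGs measured inside the gene were 4 in the 3′ UTR of its last exon, from 46480744 to 46480844. These were at 27.3% and 28.4% in WT, 20.6% and 16.5% in hSTAT5B, and 19.1% and 27.5% in hSTAT5BN642H. Both hSTAT5B libraries were below both WT libraries there (-9.32 points, limma adjusted p = 0.872). Between hSTAT5B and WT, 2 of the 13 Havcr2 CpGs (15.4%) were shifted down, against 3.57% of all CpGs, and 1 (7.69%) was shifted up, against 4.01%. Upstream, the 4 CpGs from 46450967 were at 96.1% to 100% in all libraries.

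Tigit, the gene of an inhibitory receptor for CD155 (chr16:43648867-43664146, minus strand), was covered at 8 intronic CpGs of 24, at 99.3% and 98.8% in WT, 99.7% and 98.3% in hSTAT5B, and 96.2% and 98.4% in hSTAT5BN642H. The hSTAT5BN642H libraries were just below WT and overlapped hSTAT5B (-1.73 points from WT, SE 1.95, limma adjusted p = 0.829). Its 3-CpG intronic cluster from 43657496 was at 94.9% to 100% in all libraries. Pdcd1, the gene of PD-1 (chr1:94038305-94052553, minus strand), had 1 comparable CpG of 34, at 94039088 in the 3′ UTR. All of the 9 to 29 reads were methylated there in 5 libraries, and 30 of 31 (96.8%, 95% Wilson interval 83.8 to 99.4) in hSTAT5BN642H replicate 1. Only Tnfrsf9, Icos, and Lag3 had comparable CpGs within 1 kb of an annotated start, so methylation at the starts of the other genes was not analysed here.

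Other receptors, ligands, and related surface molecules, not all of the same families, were compared as lists. In the list of further receptors, the symbols Cd244 and Tmigd2 gave no window level. Of its 30 gene symbols, 23 had 5 or more CpGs and none passed the test between hSTAT5BN642H and WT. Their median difference was -0.36 points, with 13 lower and 10 higher. The lowest were Slamf1, a homotypic adhesion and signaling receptor, at 63.4% and 57.8% in WT, 55.9% and 61.5% in hSTAT5B, and 44.6% and 48.1% in hSTAT5BN642H (-14.2 points, limma adjusted p = 0.175), and Cd27, a costimulatory receptor of the same superfamily as Tnfrsf9. Cd27 was at 20% and 19.2% in WT, 14.7% and 15.5% in hSTAT5B, and 10.5% and 10.8% in hSTAT5BN642H (-8.94 points, limma adjusted p = 0.122), so that the 3 genotypes did not overlap. Tnfrsf18, which shares CpGs with the Tnfrsf4 window, was at 80.9% and 79.4% in WT, 71.3% and 75.5% in hSTAT5B, and 71.8% and 76.4% in hSTAT5BN642H (-6.04 points, limma adjusted p = 0.368).

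In the list of ligands, the symbol Hhla2 gave no window level. Of its 24 gene symbols 20 could be tested, 10 were lower and 10 higher, the median difference was 0.0038 points, and none passed. Tnfsf4, which encodes the ligand of OX40, was at 45.2% and 40.6% in WT, 49.7% and 43.9% in hSTAT5B, and 54.4% and 54.3% in hSTAT5BN642H (11.5 points, limma adjusted p = 0.182). Tnfsf8, the gene of CD30 ligand, was at 75.1% and 73.2% in WT, 69.4% and 72.4% in hSTAT5B, and 55.6% and 67.2% in hSTAT5BN642H (-12.7 points, limma adjusted p = 0.328). In both genes the hSTAT5BN642H libraries were outside the range of the other 4. Cd200, the gene of a ligand of an inhibitory receptor of myeloid cells, had 4 CpGs, too few for a test, and differed by -7.10 points.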

How the data were processed

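RRBS was performed by the study on genomic DNA from enriched CD8+ T cells, with 2 libraries for each of 3 genotypes. The submitters' processing notes name Trimmomatic, BSMAP, and GRCm38/mm10, with no versions. Each deposited file lists per CpG the counts of methylated and total reads, as text, and a score that holds the rounded methylation level; the authors deposited no p-values. The counts were used and the score was not. No molecular identifiers mark the reads, so Wilson intervals cover counting error only. Nothing in the labels says how the libraries of a genotype relate beyond a replicate number, and p-values measure the spread between these libraries.

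CpGs needed 5 or more reads in all 6 libraries. Genes were placed with GENCODE M21 and sequences read from RefSeq GRCm38.p6. CpGs and clusters were tested on log2((methylated + 1)/(unmethylated + 1)), and gene windows on the mean percent, with limma 3.58.1 (R 4.3.3), all 6 libraries in 1 model, prior variance of windows trended on the number of CpGs, two-sided, Benjamini-Hochberg adjusted over all features. The limma analyses were tested on simulated data, which for windows held levels of summed reads and not the means over CpGs used here. The simulated spread between libraries was a fixed value and was not estimated from these libraries. The simulation therefore does not show how large a change could be called here. Tables and figures were made with Python 3.11.15, pandas 2.3.3, scipy 1.17.1, pysam 0.24.0, and matplotlib 3.10.9. Alternatives were a 10-read minimum, a replicate block, other windows, other tests, and leaving out each library.

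The 9 genes and the receptor and ligand lists were chosen with earlier results of these data known. Named were, per gene, the cluster nearest to the start and up to 2 non-overlapping clusters with the widest differences between hSTAT5BN642H and WT (single CpGs where a gene had no cluster), and in the related lists the 3 widest window differences. Other single CpGs, the quasi-binomial model, the motif search, and the windows without their lowest cluster were chosen after the data had been seen.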

Additional observations from a re-analysis of the deposited data

Results flagged for a closer look

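The 7 tested windows, the 26 clusters, the shifted CpGs, and the CpGs of Pdcd1 and Ctla4 were searched for opposite directions against WT. No share over all features was counted for this pattern. Every CpG named below had already been counted as shifted down in hSTAT5BN642H, so that side of the pattern was fixed by the selection. At 8 of the searched features, every library of hSTAT5BN642H lay below the WT mean and every library of hSTAT5B above it. None of these differences between the transgenic genotypes passed limma's test (adjusted p = 0.617 to 0.866). At the Tnfrsf9 intron 1 cluster this held for the CpG at 150924166, which was -22.9 points from WT in hSTAT5BN642H and 31.8 points above WT in hSTAT5B on 7 and 6 reads, and for the CpG at 150924206 (-21.9 and 8.71 points). The Ctla4 CpG at 60911509 was -25.3 points from WT in hSTAT5BN642H and 11.8 points above it in hSTAT5B. In Lag3 the CpG at 124909681 (-33.0 and 3.63 points), the CpG at 124910326 (-10.9 and 2.21 points), and the cluster of 5 CpGs from 124904870 (-2.51 and 1.42 points) had this pattern. Smaller values were found for the Tigit cluster from 43657496 (-2.33 and 0.48 points) and the Cd28 window (-1.04 and 0.983 points). At both, the hSTAT5BN642H and WT libraries overlapped. With reads summed over the Cd28 window, hSTAT5BN642H was 0.93 points above WT, so the pattern there depended on the setting.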

How the results depend on the processing

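The absence of CpG and cluster calls held under every limma setting tried. Fisher's exact test on summed reads called 10199, 2304, and 7965 CpGs and 9088, 3816, and 8790 clusters for hSTAT5BN642H against WT, hSTAT5B against WT, and hSTAT5BN642H against hSTAT5B. Window calls depended on the settings. For hSTAT5BN642H against WT they numbered 6, and became 51 with a 10-read minimum, 33 with the replicate block, 0 with no variance trend, 13 with gene bodies alone, and 38 with 20-kb flanks, with a range of 0 to 13 when 1 library was left out (13 without WT replicate 1, 0 without either hSTAT5BN642H library). For hSTAT5B against WT the count of 0 ran from 0 to 2 with 1 library left out (2 without WT replicate 2). For hSTAT5BN642H against hSTAT5B the count of 2 became 7 with only the libraries compared, 0 with no trend, 1 with gene bodies alone, and 6 with 20-kb flanks, with a range of 0 to 7 when 1 library was left out (7 without either WT library, 0 without any one of the other 4). None of the causes was tested.

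Deviations of same-numbered libraries were nearly uncorrelated over the 19377 gene windows, at 0.0369, -0.0509, and 0.0298. These correlations pool all windows and could not show a weak or local pairing. With the replicate block the limma adjusted p of both the Tnfrsf9 intron 1 and the Icos cluster was 0.742. Under other settings, 20 of 88 window differences of the 9 genes between hSTAT5BN642H and WT moved by more than the replicate spread and 7 changed sign; for hSTAT5B against WT 16 of 88 moved and 12 changed sign, and for hSTAT5BN642H against hSTAT5B 19 of 88 and 10. Depth limits the Pdcd1, Ctla4, and Tnfrsf4 windows, at 1, 2, and 6 CpGs.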
